A study of Homo sapiens with 17 samples.

Results

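RNA recovered with the LINE-1 protein ORF1p was compared with total RNA across single repeat loci and repeat subfamilies. In RIP-seq (RNA immunoprecipitation with sequencing) an antibody pulls a protein down and the RNA bound along with it is read out. The comparison used 10 of the 17 libraries of the series, 4 labelled ORF1p RIP and 6 of total RNA, and the rule for a locus was a summed count of at least 100 over all 17. Of 3594049 loci in the table, 347397 (9.67%) met that rule, and 1074 of 1080 subfamilies passed a filter on low counts. The next loci below the minimum, with sums of 90 to under 100, numbered 33398, and 28748 lay just above it, between 100 and under 110. The sum includes the ORF1p libraries, so a locus can enter through the group in which it is high, and the shares of loci called are given as descriptions.

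All 17 libraries carry the cell line label N2102Ep, a long-established line of human embryonal carcinoma cells. The 13 libraries of total RNA, mock IP (3) and ORF2p RIP (4) name clone 2/A6 as source and tissue. The 4 ORF1p RIP libraries have the word embryonal there, so their clone is not stated, while their descriptions name N2102Ep as those of the other libraries do. No label gives the total RNA a treatment, and the protocol describes the recovery of RNA from the affinity media only. The descriptions of the total RNA mark 2 libraries b and 4 libraries bl, which no source used here explains, and values against each series are given apart where the series change a call and for the main members. Nothing in the labels says that libraries of a group came from separate cultures, so p-values measure only the spread between these libraries. In such bulk RNA, fewer cells of a type and less RNA per cell cannot be told apart.

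L1 (LINE-1) elements copy themselves through an RNA intermediate. The L1 transcript encodes ORF1p, a trimeric protein that coats the RNA, and ORF2p, which cuts genomic DNA and reverse transcribes the RNA there. Both proteins preferentially bind the RNA that encoded them, and Alu elements, short non-coding repeats, are copied by borrowing ORF2p. Embryonal carcinoma cells transcribe L1 and also the endogenous retroviruses HERVH and HERVK, whose LTRs (long terminal repeats) act as promoters in pluripotent cells.

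Some annotated genes start inside a tested repeat, so that part or all of the promoter is repeat sequence. Of 35116 promoters in the RefSeq table (build GRCh38.p14), 228 had their start in a tested locus, and 47 of those loci were higher and 90 lower in the ORF1p libraries, where 21.9% of all loci were higher and 30.9% lower. A locus can hold several of these starts, so the 228 promoters are not 228 separate loci. The 3 below are shown because their loci were at or near 0 in one of the groups, so their differences are descriptions and carry no test. Reads were counted over the whole repeat locus and not over the printed window. Each has 250 bases before the start in lower case and 50 bases from the start in capitals, 5′ to 3′ on the strand of the gene.
LOC107987110 promoter in a Tigger6a DNA transposon, plus strand, chr9:107221987-107222286: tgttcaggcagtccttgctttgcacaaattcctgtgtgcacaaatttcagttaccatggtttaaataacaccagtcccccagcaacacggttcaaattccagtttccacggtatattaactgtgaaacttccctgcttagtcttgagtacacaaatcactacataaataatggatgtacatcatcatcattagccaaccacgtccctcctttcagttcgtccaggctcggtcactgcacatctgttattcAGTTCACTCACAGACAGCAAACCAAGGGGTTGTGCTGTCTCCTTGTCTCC
LOC107986840 promoter in an L1MCb element, plus strand, chr7:119706322-119706621: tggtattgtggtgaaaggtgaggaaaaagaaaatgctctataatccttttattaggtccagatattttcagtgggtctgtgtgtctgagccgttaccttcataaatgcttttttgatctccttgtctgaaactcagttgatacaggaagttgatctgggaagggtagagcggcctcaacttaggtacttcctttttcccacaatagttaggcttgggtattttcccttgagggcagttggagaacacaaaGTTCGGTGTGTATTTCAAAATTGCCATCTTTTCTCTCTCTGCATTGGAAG
LOC124901391 promoter in an L1PB2 element, minus strand, chr6:122568530-122568829: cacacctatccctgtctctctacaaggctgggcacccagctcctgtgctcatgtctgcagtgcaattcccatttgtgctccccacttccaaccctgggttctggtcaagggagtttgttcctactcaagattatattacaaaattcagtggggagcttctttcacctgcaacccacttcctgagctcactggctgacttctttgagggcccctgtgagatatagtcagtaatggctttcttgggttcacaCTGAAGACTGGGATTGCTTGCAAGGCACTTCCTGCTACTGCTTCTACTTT

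The Tigger6a locus, chr9:107221991-107223032, measured 15.05, 15.8, 19.97 and 9.58 CPM in the 4 ORF1p libraries, where CPM is the count scaled to library size with TMM factors. It measured 0 and 0.0486 CPM in series b and 0.0990, 0, 0 and 0.102 CPM in series bl. The ORF1p libraries together held 476 counts of it and the 6 total RNA libraries 4, a log2 difference, ORF1p RIP over total RNA, of 8.33 (SE 0.56). The locus met the count minimum only through the ORF1p libraries, which were the high group.

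The L1MCb locus, chr7:119705201-119707009, was low where the Tigger6a locus was high. It measured 0.320, 0, 0 and 0.228 CPM in the ORF1p libraries, 10.04 and 7.98 CPM in series b and 139, 89.5, 92.4 and 100.2 CPM in series bl, a log2 difference of -8.83 (SE 0.88). The L1PB2 locus, chr6:122568244-122572317, was likewise nearly empty in the ORF1p libraries, at 0, 0.124, 0 and 0.342 CPM, against 14.1 and 11.3 in series b and 47.9, 34.1, 29.9 and 39.5 in series bl (log2 difference -7.80, SE 0.66). At both loci series bl was higher than series b.

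Depth was between 7693841 and 9125527 repeat reads in the ORF1p libraries and between 8937441 and 19670774 in total RNA. The third ORF1p library had 636018 loci above 0 against 971567 to 1026240 in the other 3, and results that rest on it are given without it. The libraries labelled ORF1p RIP stood apart from every other library of the series. Over the 347397 loci, Pearson's r of log2(CPM + 0.5) was 0.8 to 0.908 among the ORF1p libraries but 0.113 to 0.177 against series b and 0.177 to 0.277 against series bl. It was 0.198 to 0.241 against the mock IP and 0.235 to 0.298 against the ORF2p RIP. By contrast total RNA reached 0.653 to 0.833 with the mock IP and 0.488 to 0.61 with the ORF2p RIP. These correlations are across loci, which are not independent and share a library's depth, and describe the libraries only.

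**Figure D1:**
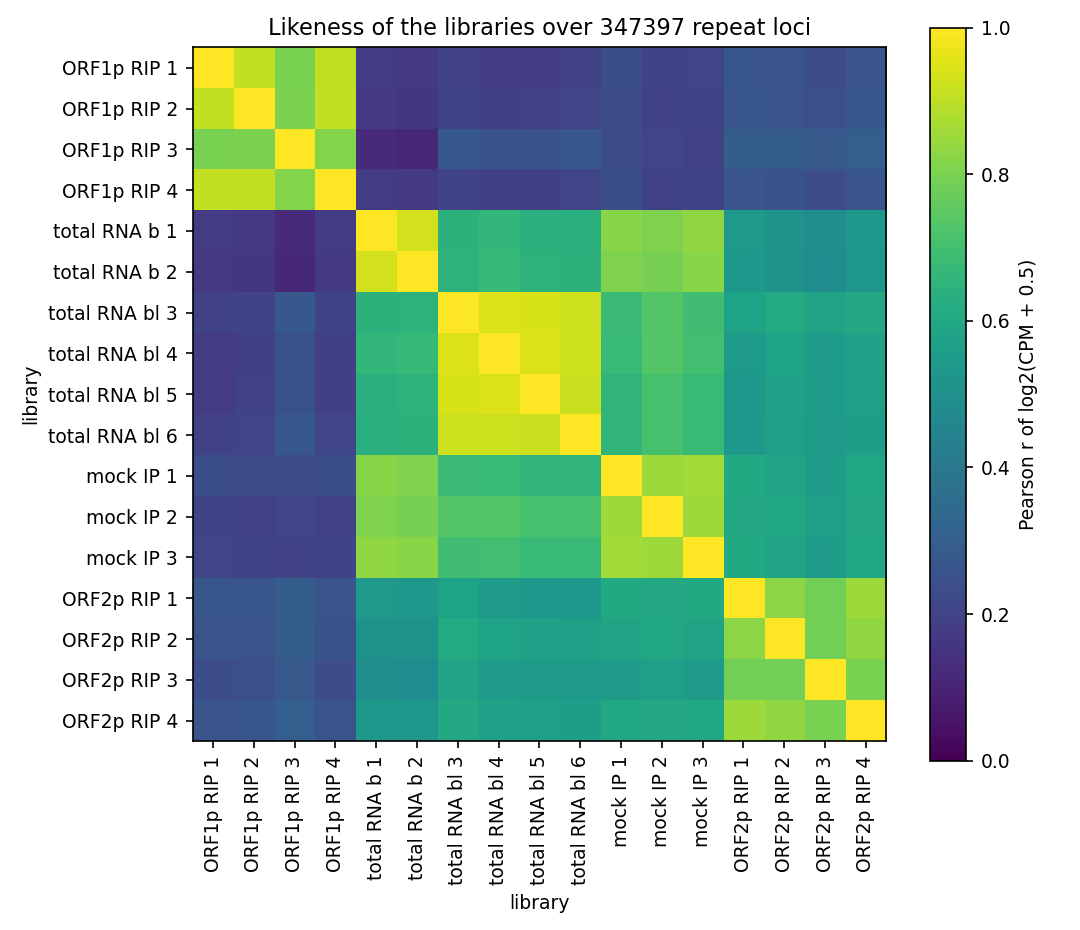
Likeness of the 17 libraries: each square is Pearson's r of log2(CPM + 0.5) over 347397 repeat loci between the library of its line and that of its column, coloured from 0 to 1. The 4 ORF1p RIP libraries form a block of their own at 0.8 to 0.908 and stay below 0.3 with all others, while the 2 libraries of series b resemble the mock IP at 0.795 to 0.833.

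The same gap appeared as loci present in one group and missing from the other. Of 8455 loci with a mean of at least 10 CPM in total RNA, 371 (4.39%) had no read in any ORF1p library and 1426 (16.9%) had at most 3. None of those 8455 loci was at 0 in all mock IP libraries or in all ORF2p RIP libraries. In the other direction, 13 of 11363 loci at 10 CPM or more in the ORF1p libraries (0.114%) had no read in total RNA. All 4 groups are labelled as the same cell line, but the source and tissue labels name the clone only outside the ORF1p group. Whether a difference in clone or culture has a part in these differences was not tested. A difference below is therefore one between libraries labelled ORF1p RIP and libraries of total RNA.

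Across subfamilies, 98 were higher (9.12% of those tested) and 89 lower (8.29%) in the ORF1p libraries. A call needed an adjusted p under 0.05 in edgeR's quasi-likelihood test with Benjamini-Hochberg adjustment and at least 2-fold. The median subfamily was at 0.00 on the log2 scale. Scaling by library totals instead of TMM moved that median to -0.20 and gave 55 higher and 127 lower, so the split between directions depends on the scaling. Against series b alone 88 were higher (8.19%) and 104 lower (9.68%), and against series bl 124 (11.5%) and 93 (8.66%). Of the 98 higher subfamilies 51 were also called higher against each series, and of the 89 lower ones 60 were called lower against each. Called in either direction were 17.4% over all 6 libraries, 17.9% against series b and 20.2% against series bl. The ORF1p libraries lay above all total RNA libraries, without overlap, at 23.5% of subfamilies and below them at 20.9%. No subfamily was called higher against one series and lower against the other.

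The youngest L1 subfamilies were higher in the ORF1p libraries. L1HS, the human-specific subfamily that holds the active elements, measured 16065, 15472, 53009 and 17613 CPM in the ORF1p libraries. It measured 941 and 826 CPM in series b and 2707, 1784, 1750 and 2255 CPM in series bl. Every ORF1p library was above every total RNA library, and the third was far above the other 3. The log2 difference was 3.90 (SE 0.37; edgeR adjusted p = 2.44e-07), 4.85 against series b and 3.59 against series bl. Without the third ORF1p library it was 3.26. The mock IP held 1864, 1829 and 1686 CPM, within the range of total RNA.

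L1PA2, the subfamily next in age, rose by 2.56 on the log2 scale (SE 0.35; edgeR adjusted p = 1.06e-05), from 5742 ± 2458 CPM in total RNA (SD, n = 6) to 33954 ± 22681 in the ORF1p libraries (SD, n = 4), with 3.50 against series b and 2.26 against series bl. L1PA3 rose by 1.45 (SE 0.29; edgeR adjusted p = 0.000422), 2.16 against series b and 1.20 against series bl, but the log2 difference was 0.95, below 2-fold, without the third ORF1p library. L1PA4 had a difference of 0.62 (edgeR adjusted p = 0.0436), under the 2-fold limit, and 0.24 (adjusted p = 0.348) without the third library. Against series b alone L1PA4 was at 1.26, and against series bl at 0.385 (adjusted p = 0.102). The older members L1PA5, L1PA6, L1PA7, L1PA8 and L1PA8A lay between -0.18 and 0.44 over all 6 libraries, but their values depend on the series. Against series b L1PA5 rose by 1.09 (edgeR adjusted p = 0.000262) and L1PA6 by 1.11 (adjusted p = 0.0003), and L1PA7 and L1PA8 were at 0.71 and 0.52, whereas against series bl L1PA5 was at 0.04 and L1PA6 at 0.19. The difference was largest at L1HS and smaller at L1PA2, L1PA3 and L1PA4 against either series. Of the 9 young L1 subfamilies 3 were higher (33.3% against 9.12% of all) and 0 lower, with a median of 0.44 against 0.00 for all subfamilies. Against series b 6 of 9 were higher with a median of 1.11, and against series bl 3 with a median of 0.19.

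**Figure D2:**
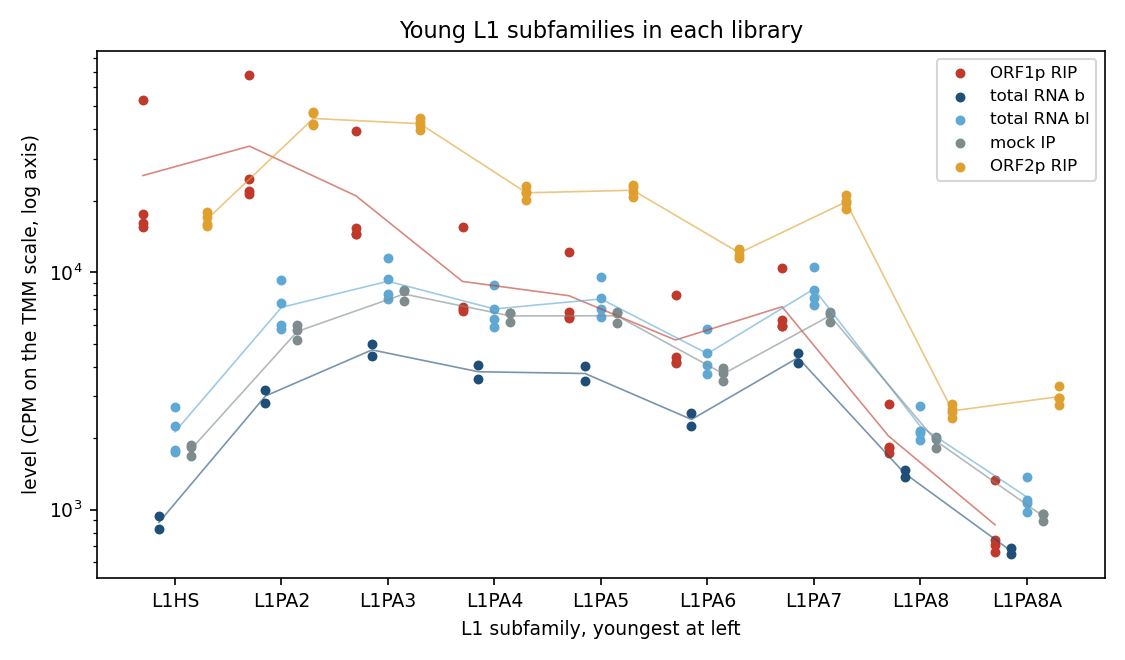
Level of each young L1 subfamily in each library, in CPM on a log axis, with subfamilies from the youngest at left to the oldest at right; points are libraries and lines join the group means. The ORF1p RIP libraries lie above total RNA of both series at L1HS, L1PA2 and L1PA3, the third ORF1p library is the highest of its group at every subfamily, and the other 3 lie within the range of total RNA from L1PA4 on.

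Ratios within a library do not depend on scaling. The ORF1p libraries held 2.72, 2.60, 5.07 and 2.80 L1HS reads per read of L1PA7, an older L1 at 0.01 over all 6 total RNA libraries and at 0.71 against series b. Total RNA held 0.199 to 0.268, the mock IP 0.273 to 0.274 and the ORF2p RIP 0.809 to 0.900. The ORF1p libraries were above all others in this ratio. In CPM of L1HS they were not, since the ORF2p RIP held 15720 to 17898, like the ORF1p libraries other than the third. For L1PA2 the ratio was 3.59 to 6.49 in the ORF1p libraries and 0.678 to 0.884 in total RNA. For L1PA3 it was 2.44 to 3.78 and 1.04 to 1.11, so all 3 ratios were without overlap.

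As a share of all repeat reads, L1HS took 1.65%, 1.60%, 4.28% and 1.85% in the ORF1p libraries. It took 0.112% and 0.100% in series b and 0.284%, 0.197%, 0.191% and 0.246% in series bl. Even the lowest ORF1p library had several times the share of the highest total RNA library. The exact two-sided permutation test gave p = 0.00952, the smallest that 4 against 6 libraries allow, and 0.046 after adjustment over 29 shares. Young L1 as a whole took 10.5% ± 4.37 (SD, n = 4) against 4.57% ± 1.39 (SD, n = 6), with the same p and no overlap. The ORF2p RIP held 15.6%, 16.2%, 15.3% and 14.8% young L1, above every ORF1p library but the third. The share of all LINE reads was 44.8% ± 4.77 against 46.1% ± 8.39, and the groups overlapped (exact permutation adjusted p = 0.75), since it was 35.3% in series b and 51.5% in series bl.

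Alu elements gave a result that depends on the series. AluYb8 and AluYa5, the young Alu subfamilies with active copies, were higher against both. AluYb8 measured 1064, 1177, 1921 and 1231 CPM in the ORF1p libraries against 288 and 299 in series b and 192, 205, 288 and 282 in series bl (log2 difference 2.38, SE 0.17, edgeR adjusted p = 7.41e-09). AluYa5 measured 702, 587, 1181 and 682 CPM against 272 and 279.8 in series b and 157, 176, 278 and 264 in series bl (1.73, SE 0.22, edgeR adjusted p = 6.62e-06). Neither overlapped between the groups.

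The older AluY, AluSx and AluJb were closer to series b. AluY had a log2 difference of 1.14 (edgeR adjusted p = 0.00385), made up of 0.33 against series b and 1.82 against series bl. For AluSx the values were 1.09, 0.35 and 1.68. For AluJb they were 0.97, 0.27 and 1.51, below the 2-fold limit in the first. Of 17 AluS subfamilies 13 were higher over the 6 total RNA libraries (76.5% against 9.12% of all subfamilies), 0 against series b and 17 against series bl, and 2 under library totals.

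Over the whole SINE class 27 of 60 subfamilies were higher (45% against 9.12% of all subfamilies) and 0 lower (8.29% of all). The higher ones were 6 against series b, 46 against series bl and 10 under library totals. The class median was 0.97, or 0.74 under library totals. The share of SINE reads was 26.9% ± 3.49 (SD, n = 4) in the ORF1p libraries, 25.9% in series b and 14.2% in series bl. The exact permutation test over all 6 total RNA libraries did not pass (adjusted p = 0.127). FLAM_C, a monomeric forerunner of Alu, was higher with a log2 difference of 1.03 (SE 0.19; edgeR adjusted p = 0.000241), 0.47 against series b and 1.41 against series bl.

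LTR elements took a smaller share in the ORF1p libraries, 17.9% ± 0.619 (SD, n = 4) against 25.98% ± 2.86 (SD, n = 6), without overlap (exact permutation adjusted p = 0.046), and the mock IP had 34.5%. Of 575 LTR subfamilies 38 were higher (6.61% against 9.12% of all) and 64 lower (11.1% against 8.29%). They were 29 and 90 against series b and 52 and 60 against series bl. HERVH-int, the internal part of the HERVH retrovirus, which is transcribed in pluripotent cells, measured 39246, 34072, 66090 and 31225 CPM in the ORF1p libraries. It measured 106666 and 91192 CPM in series b and 80377, 74285, 73868 and 76821 in series bl. The groups did not overlap and the log2 difference was -0.98 (SE 0.19; edgeR adjusted p = 0.000318), just under the 2-fold limit, and -1.27 without the third ORF1p library. The mock IP was higher than either group, at 171507 to 196636 CPM.

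HERVH-int with its LTR7 ends took 4.39% ± 0.936 of the reads (SD, n = 4) against 10.05% ± 2.20 (SD, n = 6; exact permutation adjusted p = 0.046). Of the 6 members of that list 2 were higher (33.3% against 9.12% of all subfamilies) and 1 lower (16.7% against 8.29%). The counts were 1 and 4 against series b, 2 and 1 against series bl and 2 and 3 under library totals. LTR7C, a variant of the HERVH promoter, rose by 2.13 (SE 0.24; edgeR adjusted p = 1.26e-06). LTR7A fell by 3.80 (SE 0.46; edgeR adjusted p = 3.12e-06), at 0.248 to 0.644 CPM against 2.63 to 7.56. Of its total RNA reads 80.0% came from 1 locus on chromosome X, so its fall is mostly a reading of that locus.

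HERVK, the youngest human endogenous retrovirus group, gave values that depended on the part and on the series. LTR5_Hs, its promoter, measured 3633, 3346, 2023 and 3090 CPM in the ORF1p libraries, 925 and 945 in series b and 576, 477, 454 and 499 in series bl. No libraries overlapped, and the log2 difference was 2.23 (SE 0.22; edgeR adjusted p = 3.50e-07). HERVK-int, the coding part, was at 0.17 (SE 0.28; edgeR adjusted p = 0.616), with 1.32 against series b and -0.18 against series bl. Both parts were thus higher against series b, and the parts differed in direction against series bl only. The ORF1p libraries held 0.159, 0.144, 0.0692 and 0.165 LTR5_Hs reads per HERVK-int read. Series b held 0.0992 and 0.1000, which overlaps them, and series bl 0.0173 to 0.0204. Of the 5 members of the list 3 were higher (60% against 9.12% of all subfamilies), 2 against series b and 3 against series bl.

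The other subfamilies with the largest differences were small and often held by a single locus. MER34B-int, an old retroviral interior, measured 1819 ± 174 CPM against 194 ± 54.6 (log2 difference 3.23, SE 0.18, edgeR adjusted p = 5.80e-10), and 91.5% of its ORF1p reads came from 1 locus in YWHAZ, a 14-3-3 adaptor gene. X5B_LINE rose by 2.79 (SE 0.33; edgeR adjusted p = 2.28e-06), with 95.8% of its ORF1p reads from 1 locus in PAWR. UCON51 rose by 3.69, MLT1E3-int by 2.60 and MER123 by 2.49. Among those lower, HERV-Fc1-int fell by 4.31 (SE 0.41; edgeR adjusted p = 2.05e-07), and 97.3% of its ORF1p reads and 91.4% of its total RNA reads came from 1 locus in ZNF138. The ORF1p sums of MER34B-int, X5B_LINE and HERV-Fc1-int are thus mostly readings of 1 locus each, while the top locus of MLT1E3-int held 33.0% of its ORF1p reads.

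At single loci 76090 were higher (21.9%) and 107192 lower (30.9%), with a median of -0.23 on the log2 scale. Against series b 73797 were higher (21.2%) and 105443 lower (30.4%), and against series bl 86721 (25%) and 107138 (30.8%). Of the higher loci 53427 (70.2%) were called higher against both series, and of the lower ones 84653 (79%). Only 1181 loci (0.34%) were called in opposite directions against the 2 series. In either direction 52.8% of loci were called over all 6 libraries, 51.6% against series b and 55.8% against series bl. The groups did not overlap at 16.7% of loci above and 25.8% below. With TMM factors taken from the loci themselves the median was -0.60, with 58170 higher and 123890 lower.

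L1HS had 878 of its 1585 loci tested, of which 797 were higher (90.8% against 21.9% of all loci) and 15 lower, with a median of 3.57. Without the third ORF1p library 727 were higher (82.8%). L1HS loci of 6000 bp or more, the length of a complete element, were higher in 300 of 307 cases and shorter ones in 497 of 571. The count was alike outside genes, 433 of 467, and inside a single gene, 342 of 381. It was 118 of 129 for L1HS on the strand of the gene and 148 of 166 on the opposite strand. Loci called higher were thus found among full-length and truncated copies and in both kinds of place. Of the values above 0 in the ORF1p libraries 72.6% to 79.1% were whole numbers, so part of the counts divide reads between loci. How reads shared by similar copies were placed is not stated. The L1HS and L1PA loci are therefore not independent readings, and reads of a few copies may enter the counts of others.

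The share of higher loci became smaller with subfamily age. It was 79.8% of 2070 for L1PA2, 63.5% of 3963 for L1PA3, 41.8% of 2987 for L1PA4 and 30.5% of 2309 for L1PA5. L1PA6 had 25.2%, L1PA7 20.7%, L1PA8 19.7% and L1PA8A 17.6%, near the 21.9% of all loci. Without the third ORF1p library the first 4 shares were 68.1%, 49%, 29.1% and 22.7%.

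The most abundant L1HS locus of the ORF1p libraries was a 6 kb element within TTC28, chr22:28663284-28669315 (hg38), on the plus strand while TTC28 lies on the minus strand. It measured 1642, 1574, 5400 and 1944 CPM in the ORF1p libraries, 2.04 and 1.85 in series b and 8.86, 6.36, 5.92 and 9.63 in series bl. The log2 difference was 8.84 (SE 0.51; edgeR adjusted p = 9.25e-13), and this single locus gave 10.3% of the L1HS reads of the ORF1p libraries. In total RNA it was one of many weak loci, and in the ORF2p RIP it held 83.9 to 115 CPM.

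Other full-length L1HS loci followed at lower levels. The element at chr7:25041861-25047891, outside genes, had 698 ± 389 CPM against 5.34 ± 2.14 (log2 difference 7.03). The element within CFAP52, a ciliary protein gene, at chr17:9615986-9622015, had 574 ± 319 against 3.39 ± 1.45 (7.41). Those at chr1:239623499-239629523 and chr12:74874869-74880901 differed by 6.92 and 6.80. All 4 had edgeR adjusted p-values between 4.07e-13 and 1.50e-12, and at each the 4 ORF1p libraries lay above all 6 total RNA libraries.

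Of the young Alu loci tested, 66 of 116 AluYa5 were higher (56.9% against 21.9% of all loci) and 25 lower, and 52 of 101 AluYb8 were higher (51.5%) and 25 lower. The most abundant AluYb8 locus, chr5:143974084-143974240 outside genes, measured 357, 357, 632 and 446 CPM against 22.9 and 29.8 in series b and 28.2, 21.7, 45.05 and 27.6 in series bl (log2 difference 3.94, SE 0.29, edgeR adjusted p = 3.08e-11). It made up 33.2% of the AluYb8 reads of the ORF1p libraries. The most abundant AluYa5 locus, chr7:118703762-118704101, measured 77.4, 108, 422 and 76.7 CPM in the ORF1p libraries. It measured 8.17 and 9.14 CPM in series b and 33.7, 44.7, 96.8 and 132 in series bl. Its difference of 1.66 (edgeR adjusted p = 0.0169) depends on the third library and on the series. It was 0.69 (edgeR adjusted p = 0.323) without that library, 4.30 (edgeR adjusted p = 1.82e-06) against series b and 1.16 (edgeR adjusted p = 0.0203) against series bl.

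The HERVH-int loci moved mostly down, and 2637 of the 4032 tested (65.4% against 30.9% of all loci) were lower and 321 higher (7.96% against 21.9%). The locus in LINC03141, chr12:4018994-4021963, measured 52.0, 45.2, 44.3 and 56.6 CPM in the ORF1p libraries. It measured 2547 and 2216 CPM in series b and 2141, 1958, 1825 and 2316 in series bl, a log2 difference of -5.45 (SE 0.32; edgeR adjusted p = 1.10e-12). This was the most abundant HERVH-int locus of total RNA, and every ORF1p library was far below it.

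Another HERVH-int locus was high in the ORF1p libraries instead. The one in DPH6, a diphthamide synthesis gene, chr15:35239063-35242176, measured 3941, 3263, 6503 and 3347 CPM in the ORF1p libraries against 61.5 and 47.6 in series b and 47.0, 32.0, 33.3 and 40.5 in series bl. Its log2 difference was 6.61 (SE 0.33; edgeR adjusted p = 1.33e-13) and it gave 9.99% of the HERVH-int reads of the ORF1p libraries. The locus at chr1:68386440-68389684 rose by 6.34. The HERVH-int locus within the spans of both ESRG, a long non-coding RNA gene of pluripotent cells, and CACNA2D3, chr3:54636819-54639750, was higher by 1.10 (SE 0.28; edgeR adjusted p = 0.0014), 0.59 against series b and 1.45 against series bl. With the number in the library descriptions as a replicate block it was at 1.08 and did not pass (edgeR adjusted p = 0.071).

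Of 130 HERVK-int loci 33 were higher (25.4%) and 34 lower (26.2%), near the 21.9% and 30.9% of all loci. The counts turned with the series, 51 and 26 against series b and 29 and 41 against series bl. The locus at chr11:118723687-118729206 rose by 3.58 (SE 0.30; edgeR adjusted p = 1.88e-10) and the one in MEI4, a meiosis gene, at chr6:77718000-77725406, by 2.00 (SE 0.33; edgeR adjusted p = 1.19e-05). The locus at chr22:23538730-23546008 fell by 2.86 (SE 0.35; edgeR adjusted p = 1.28e-07), from 3999 ± 1660 to 549 ± 158 CPM. The most abundant one in the ORF1p libraries, chr22:18939642-18945174, stood at 4595 ± 1156 against 4025 ± 1919 CPM and did not pass the test (log2 difference 0.19, edgeR adjusted p = 0.652). Against series b alone it was called higher, at 1.525 (edgeR adjusted p = 1.12e-06), and against series bl it was at -0.19.

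Several loci were present in one group and without a read in the other. The THE1B element at chr2:185151563-185151925, outside genes, measured 42.6, 33.4, 56.7 and 36.7 CPM in the ORF1p libraries and 0 in all 6 of total RNA, which makes it at least 1522-fold higher when total RNA is set at a floor of 3 counts over the group. It was also at 0 in all mock IP and ORF2p RIP libraries, as was its neighbour MLT1B (at least 495-fold higher). An L1MA1 element on chromosome X was at least 992-fold higher and the MIR3 element within SOST, which encodes a bone-derived Wnt inhibitor, at least 759-fold higher.

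In the other direction the L1MEc element at chr21:27850912-27851651 had no read in the ORF1p libraries and measured 10.3 and 6.71 CPM in series b and 87.1, 65.9, 72.6 and 81.8 in series bl. It was at least 584-fold lower with the same floor over the ORF1p libraries. An L1M8 element on chromosome 3, at least 499-fold lower, and an L1M3 element in MIR4300HG, at least 488-fold lower, were in the same state. These elements had reads in every mock IP and ORF2p RIP library.

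The calls also differed by where a locus lies. Of 67756 loci outside genes 15.8% were higher and 58.2% lower, with a median of -2.82, or -2.38 with loci at 0 in one group set at their bound. Of 34218 loci in a long non-coding RNA gene 16.5% were higher and 53.2% lower, with a median of -1.99. Of 213640 loci in a protein-coding gene 24.1% were higher and 19.5% lower, and their median of 0.11 turned to -0.09 under library totals. All loci had 21.9% and 30.9%. Repeat reads from outside genes and from non-coding genes were thus lower far more often than those from protein-coding genes. Against series b and series bl the medians outside genes were -2.47 and -2.77.

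Inside genes the position along the gene went with the difference. Of 3099 loci within 1 kb of the gene end 64.3% were higher, with a median of 1.96 (1.88 against series b and 2.16 against series bl). The share was 59.5% at 1 to 2 kb, 43.5% at 2 to 5 kb, 34.1% at 5 to 10 kb, 24.6% at 10 to 50 kb and 18.1% beyond 50 kb. No such gradient ran from the gene start, where 26.2% of 1357 loci within 1 kb were higher and 22.7% to 25% further in. The gene end is where the last exon and its untranslated region usually lie, but exons were not used here, and no locus was assigned to an exon or an intron.

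**Figure D3:**
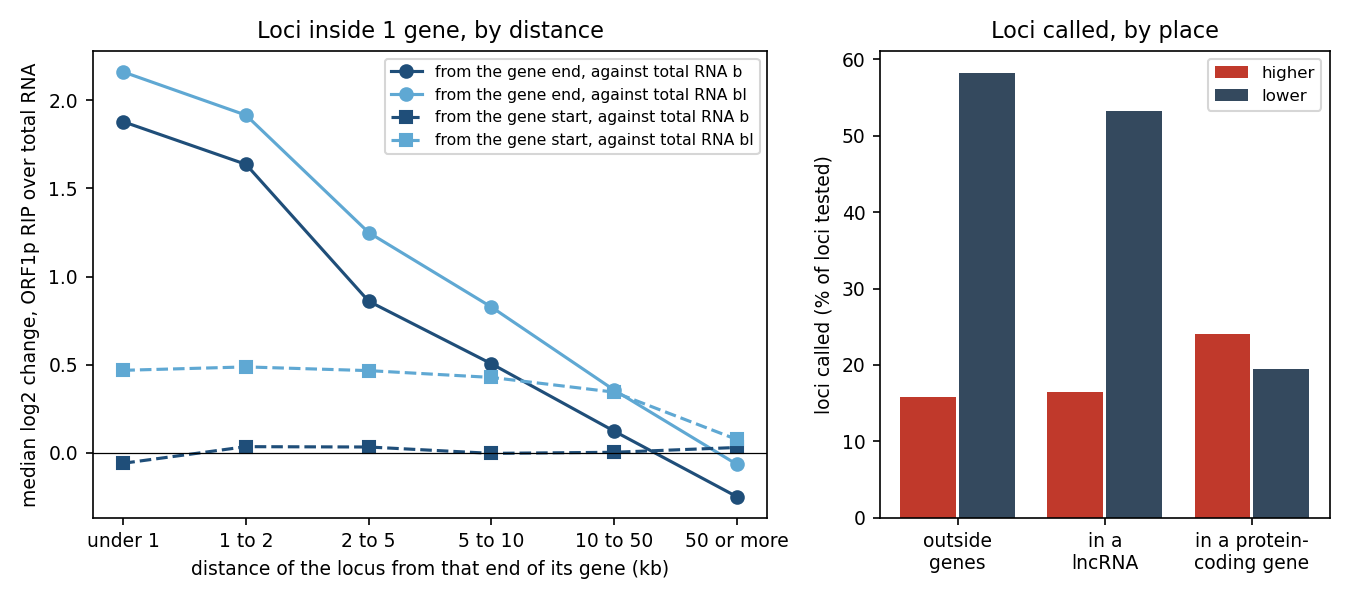
Left, median log2 difference of loci inside 1 gene (ORF1p RIP over total RNA, series b and bl apart) by distance in kb from the end or from the start of the gene; right, percent of loci called higher or lower by place. The median near the gene end is 1.88 against series b and 2.16 against series bl and comes down with distance, while the median from the gene start shows no such slope; 58.2% of loci outside genes and 53.2% in lncRNA genes are lower.

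Loci of the same gene moved together. Over 221222 loci in 5160 genes with enough loci, 78.6% of the variance of the log2 difference lay between genes, and the median SD within a gene was 1.07 against 2.70 over all loci. In 1215 genes at least 9 in 10 loci were called higher and in 857 at least 9 in 10 lower. Each locus was also set against the median of the other loci of its gene, within the same libraries.

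On that measure the medians again came down with the age of the L1 subfamily. L1HS loci lay 3.25 above the other loci of their gene on the log2 scale (median of 207 loci in 171 genes, quartiles 1.62 and 6.39), with 3.69 against series b and 3.12 against series bl. Of the 207, 167 (80.7%) were at least 2-fold above their gene, against 17.5% of all loci. The medians were 2.06 for L1PA2, 1.29 for L1PA3, 0.66 for L1PA4, 0.44 for L1PA5 and 0.37 for L1PA6. L1PA7, L1PA8 and L1PA8A were at 0.13, 0.09 and 0.20, and all loci at 0.00.

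L1HS on the strand opposite to the gene lay 3.82 above it and L1HS on the same strand 2.26, a pair of medians whose difference was not tested. The uncertain placing of reads among similar L1 copies applies to these medians and to those by subfamily age. AluYa5 and AluYb8 lay 1.35 and 1.08 above their genes, with AluYb8 at 0.36 against series b. AluS lay 0.45 above, but -0.09 against series b and 0.94 against series bl, so its direction depends on the series. LTR5_Hs lay 1.14 above and HERVK-int 1.14 above, over 30 loci of the latter. HERVH-int with LTR7 lay 0.52 above its genes, or -0.12 with loci at 0 set at their bound, which leaves no direction.

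**Figure D4:**
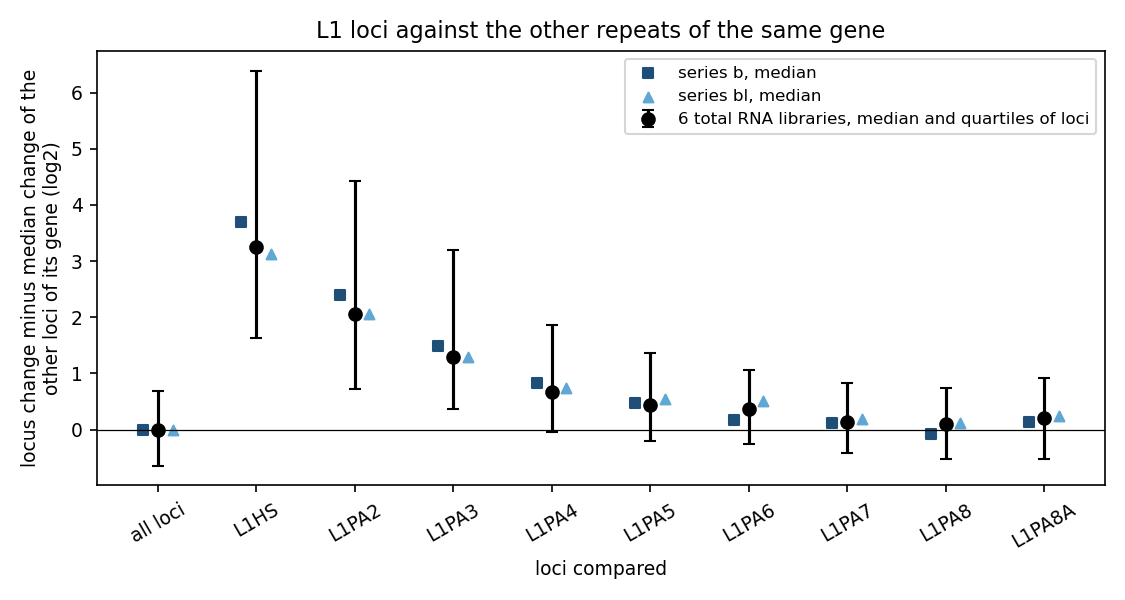
Log2 difference of each L1 locus minus the median of the other repeat loci of its gene: circles are medians against all 6 total RNA libraries with bars from the lower to the upper quartile of loci, squares and triangles the medians against series b and bl. The median comes down from 3.25 at L1HS to 0.13 at L1PA7, and all loci together sit at 0.00.

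Repeat reads were also summed over gene spans, taking loci that lie wholly inside the span of exactly 1 RefSeq gene. Such sums are mostly of repeat sequence within a gene and are no measure of its mRNA, and how strand entered the counting is not stated. Of 18175 spans tested 6132 were higher (33.7%) and 3616 lower (19.9%), with a median of 0.45 (0.20 against series b, 0.72 against series bl, 0.23 under library totals). Against series b 30.5% were higher and 24.4% lower (54.9% in either direction), and against series bl 41.1% and 18.2% (59.2%). The groups did not overlap at 34.7% of spans above and 19.1% below. Protein-coding spans were 35.4% higher and 15.3% lower of 12914, and lncRNA spans 28.7% and 32.7% of 4522. Of the higher spans 4736 (77.2%) and of the lower 2861 (79.1%) were called against both series.

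Markers of pluripotent and embryonal carcinoma cells did not move one way. Of 20 in the list 16 were tested, 4 higher (25% against 33.7% of all spans) and 8 lower (50% against 19.9%), with a median of -1.17 against 0.45 for all spans. Against series b 2 were higher and 9 lower, where 30.5% and 24.4% of all spans were. Against series bl the counts were 6 and 8, where 41.1% and 18.2% of all spans were. NANOG, a core pluripotency factor, measured 4.59, 2.86, 1.45 and 2.28 CPM in the ORF1p libraries against 51.6 and 53.5 in series b and 16.7, 15.5, 14.5 and 14.4 in series bl (log2 difference -3.28, SE 0.47, edgeR adjusted p = 4.42e-06). DNMT3B, the de novo DNA methyltransferase of early embryonic cells, measured 21.99, 24.6, 26.7 and 27.02 against 427 and 442 in series b and 245, 296, 297 and 271 in series bl (-3.72, SE 0.19, edgeR adjusted p = 2.00e-12). Neither overlapped, and the ORF1p libraries were low in both.

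ZFP42 and GDF3, which are markers of the undifferentiated state, fell to near 0: ZFP42 by 6.97 (0.139 ± 0.169 against 20.3 ± 8.13 CPM) and GDF3 by 5.54 (0.204 ± 0.153 against 10.4 ± 4.36). LIN28B, an inhibitor of let-7 maturation, fell by 1.39. By contrast its paralogue LIN28A rose by 1.24 (SE 0.22; edgeR adjusted p = 5.75e-05) and PRDM14, a germline and pluripotency regulator, by 1.08 (SE 0.22; edgeR adjusted p = 0.000227). DPPA4, a chromatin factor of early embryonic cells, was at 0.28 (adjusted p = 0.439), -0.58 against series b and 1.03 against series bl. FGF2 was at 0.92 and SALL4 at 0.56, both below the 2-fold limit.

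POU5F1, the pluripotency factor OCT4, measured 266, 251, 147 and 161 CPM against 16.2 and 17.2 in series b and 9.26, 9.76, 7.94 and 11.4 in series bl (log2 difference 4.10, SE 0.24, edgeR adjusted p = 1.74e-11). CD24, a surface glycoprotein gene, measured 2872, 2827, 3943 and 3462 against 131 and 130.1 in series b and 94.3, 95.4, 110.3 and 101 in series bl (4.89, SE 0.15, edgeR adjusted p = 3.52e-15). Both were far higher in every ORF1p library, nearly all of CD24 coming from 1 AluSx1 element at chr6:106970530-106970829. Both genes have near-identical copies elsewhere in the genome, so the placing of their reads is uncertain. The summed level of the tested members of the list was 4215 to 5334 CPM in the ORF1p libraries, 2540 to 2986 in total RNA and 2915 to 3102 in the mock IP.

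Of the 7 pluripotency lncRNAs 5 were tested, and all 5 were lower, where 19.9% of all spans were lower. ESRG and LINC00678 were not among the spans tested. The HERVH-int locus within the spans of ESRG and CACNA2D3 went the other way, at 1.10. LINC-ROR measured 10.4, 11.2, 8.69 and 15.1 CPM in the ORF1p libraries against 410.0 and 349 in series b and 239.6, 217, 211 and 209.9 in series bl (log2 difference -4.58, SE 0.24, edgeR adjusted p = 3.92e-12). LNCPRESS1 fell by 6.71, LINC01108 by 4.71, LINC00458 by 3.80 and LNCPRESS2 by 3.71. Their summed level was 48.7 to 88.4 CPM in the ORF1p libraries, 930 to 1131 in total RNA and 1942 to 2086 in the mock IP. Several of these transcripts are known to start in HERVH elements.

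Markers of other cell types were few. Of the neural list 3 of 5 were tested: MAP2, a neuronal microtubule protein gene, measured 169, 159, 173 and 160.4 CPM against 1.62 and 1.46 in series b and 3.22, 2.45, 2.58 and 4.61 in series bl (log2 difference 5.997, SE 0.28, edgeR adjusted p = 8.47e-13), DCX fell by 1.27 and NCAM1 was at -0.58 (adjusted p = 0.202). Of the fibroblast list 3 of 6 were tested: the receptor PDGFRB rose by 2.51 and the collagen COL1A1 by 2.41, whereas COL1A2 fell by 4.29. The tested fibroblast markers summed to 10.5 to 17.6 CPM in the ORF1p libraries, 3.22 to 8.41 in total RNA and 8.32 to 11.8 in the mock IP. Of the endoderm list GATA4 alone was tested, at 2.42 to 8.54 CPM against 2.65 to 4.08. None of the 5 trophoblast markers was among the spans tested, so no level is given for them. The part of other cells or of another clone or culture in these differences was not tested.

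**Figure D5:**
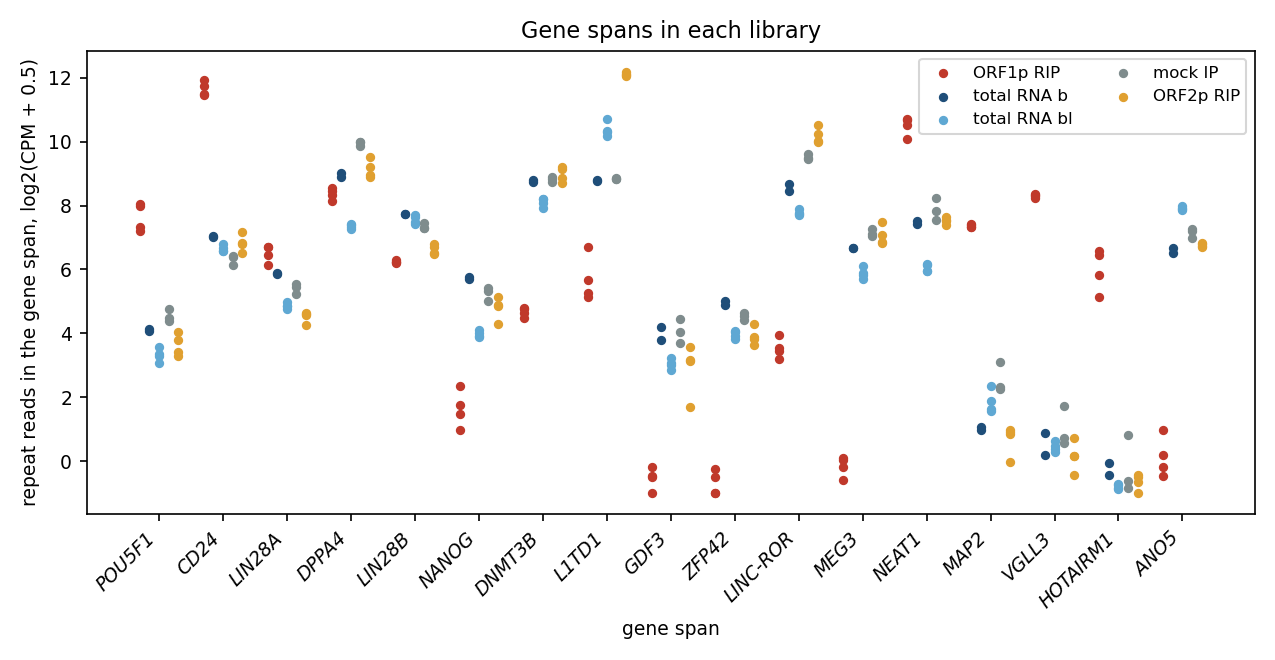
Repeat reads inside the spans of 17 genes, log2(CPM + 0.5), with 1 point per library and the groups side by side. In every gene but DPPA4 the ORF1p RIP points lie apart from all other libraries, above them at LIN28A, POU5F1, CD24, NEAT1, MAP2, VGLL3 and HOTAIRM1 and below them at LIN28B, NANOG, DNMT3B, L1TD1, GDF3, ZFP42, LINC-ROR, MEG3 and ANO5.

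Of 8 other lncRNAs tested from a fixed list 4 were higher and 2 lower, where 33.7% of all spans were higher and 19.9% lower. These 8 members are too few to set apart from those shares, and their place in the cell was not measured. NEAT1, the scaffold of paraspeckles, measured 1653, 1690, 1090 and 1482 CPM against 171 and 182 in series b and 62.1, 69.8, 61.8 and 71.2 in series bl (log2 difference 3.84, SE 0.30, edgeR adjusted p = 1.02e-09). GAS5, a snoRNA host gene, rose by 3.28, NORAD by 2.34 and OIP5-AS1 by 1.74. The imprinted transcripts MEG3 and MEG8 fell by 7.38 and 6.02, with MEG3 at 0.161 to 0.570 CPM against 51.2 to 102. The L1M4c element within the overlapping MALAT1 and TALAM1 spans was at 1.13 (edgeR adjusted p = 0.0575), 4.003 against series b and 0.62 against series bl.

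Among ORF1p partners and L1 host factors 18 of 20 were tested, 6 higher (33.3% against 33.7% of all spans) and 3 lower (16.7% against 19.9%), with a median of -0.07. These shares are near the background, and the values below describe single spans. The counts were 4 and 7 against series b and 6 and 3 against series bl. The higher spans were those of PABPC1 (2.69) and PABPC4 (1.39), poly(A)-binding proteins found in L1 particles, of ZCCHC3 (3.16), a zinc-finger nucleic acid-binding protein, of HNRNPL (2.56), of IGF2BP2 (1.08) and of the HUSH subunit MPHOSPH8 (1.21). SAMHD1, a dNTP hydrolase that restricts L1, fell by 2.87, and MORC2, a HUSH effector, by 1.57. L1TD1, an RNA-binding protein derived from L1 ORF1, measured 37.7, 34.5, 104 and 51.0 CPM against 445 and 437 in series b and 1687, 1158, 1263 and 1305 in series bl, a log2 difference of -4.21 (SE 0.41; edgeR adjusted p = 2.64e-08). The L1TD1 span held 4247 to 4663 CPM in the ORF2p RIP, the reverse of its place in the ORF1p libraries.

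Many KRAB zinc finger genes of chromosome 19 silence retrotransposons. They were taken as the ZNF symbols of that chromosome, with no check for a KRAB domain. Of these 207 spans 52 were higher (25.1% against 33.7% of all spans) and 34 lower (16.4% against 19.9%). Their median was 0.32 against 0.45 for all spans (-0.01 against series b and 0.61 against series bl). ZNF93, which represses L1PA subfamilies, fell by 5.28 (SE 0.19; edgeR adjusted p = 2.42e-14), at 1.39 to 2.58 CPM against 66.9 to 80.4. ZNF676 fell by 6.65, from 249 ± 25.1 to 2.44 ± 0.656 CPM.

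The largest differences of all were in spans almost empty on one side. VGLL3, a transcription cofactor gene, measured 312, 299.6, 321 and 329 CPM in the ORF1p libraries and 0.638 to 1.36 in total RNA (log2 difference 8.41, SE 0.27, edgeR adjusted p = 6.29e-15). HOTAIRM1, a lncRNA of the HOXA cluster, measured 34.9 to 94.1 CPM against 0.0495 to 0.468 (8.43). SOST measured 19.1 to 24.1 CPM and was at 0 in all 6 total RNA libraries. In the other direction ANO5, an anoctamin gene, measured 0.228 to 1.45 CPM against 90.7 to 251 (-8.24), and LINC00314 0 to 0.320 CPM against 83.5 to 116 (-9.20). At ANO5 the mock IP and the ORF2p RIP, from 103 to 153 CPM, lay within the range of total RNA.

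The 2 series of total RNA were compared as a check. Between bl and b, 60 subfamilies were higher in bl (5.59%) and 100 lower (9.31%), 14.9% in either direction. At single loci 40702 were higher (11.7%) and 38877 lower (11.2%), 22.9% together. Of the gene spans 1160 were higher (6.38%) and 4340 lower (23.9%), 30.3% together. The ORF1p libraries differed from all 6 total RNA libraries at 17.4% of subfamilies, 52.8% of loci and 53.6% of gene spans. The mock IP differed from total RNA at 0.745%, 1.38% and 2.77%, and the ORF2p RIP at 6.42%, 27.3% and 21.1%. Group sizes differ between these comparisons, and so does the model. The ORF1p, mock IP and ORF2p libraries were tested against all 6 total RNA libraries as a single group. There the gap between the series counts as spread, which can lower the number of calls. For bl against b the series were separate groups. The percentages are given side by side only, and few calls for the mock IP do not make it equal to total RNA.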

How the data were processed

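The deposited table holds estimated counts per repeat locus (expected counts, made by the authors); the build hg38 and the aligner STAR come from the submitters' processing notes, and no source used here names the counting program. Of 60 value columns, 17 matched a sample and 43 matched none and were not used. Members, lists and tests were chosen with earlier results of these data known. Locus starts were moved by 1 to count from 1. Counts were rounded to whole numbers and summed per subfamily and per RefSeq gene span (GRCh38.p14). They were tested with edgeR 4.0.16 (quasi-likelihood, Benjamini-Hochberg) in a model of the 4 groups, with TMM factors from the subfamilies. Values against series b or bl, and of bl against b, came from another model with the series as separate groups. Its estimate of the spread differs from that behind the main calls. A call needed an adjusted p under 0.05 and 2-fold. Named features were the largest calls above 4 CPM (subfamilies), 10 (loci) or 20 (gene spans), the most abundant loci and fixed lists. Shares were compared with exact two-sided permutation tests.

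On simulated counts with 200 features changed 4-fold, edgeR recovered 200 when run on 1074 subfamilies, 156 on 18175 gene spans and 14 on 347397 loci. With so few changed loci the adjusted p limit is stricter than in the data, where 52.8% of loci were called. The simulation therefore does not show how many single-locus differences were missed. Depth was 7693841 to 19670774 reads in the libraries compared. Counting error alone sets the floor of 3 counts. Alternatives were DESeq2 1.42.0, other scalings and filters, each series alone, leaving out each library and a replicate block.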

Additional observations from a re-analysis of the deposited data

Results flagged for a closer look

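Of 96 tests of a single library standing apart within its group, 20 (20.8%) passed Dixon's 95% limit, where chance gives about 5%, and 19 of them concerned the third ORF1p RIP library. It was the highest ORF1p library for every young L1 subfamily, each given with the next ORF1p library. L1HS measured 53009 CPM against 17613, L1PA2 67904 against 24689, L1PA3 39500 against 15382 and L1PA4 15550 against 7162. L1PA5 measured 12158 against 6779, L1PA6 7987 against 4387 and L1PA7 10461 against 6291. L1PA8 measured 2780 against 1833 and L1PA8A 1330 against 745. The older LINE L2a stood at 34963 CPM against 31315 and MER123 at 90.005 against 43.3.

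The same library had 51.9% LINE reads against 43.1% in the next, 21.7% SINE reads against 27.9%, 17.01% young L1 reads against 8.89% and 4.28% L1HS reads against 1.85%. Its ratios stood apart too: 5.07 L1HS reads per L1PA7 read against 2.80, 6.49 for L1PA2 against 3.92 and 3.78 for L1PA3 against 2.45. It had 0.0617 AluYa5 reads per AluSx read against 0.0364. The other result was L1P in the fourth ORF1p library, at 1.60 CPM against 2.24 in the nearest. The cause was not tested, and results with and without the third library are given in the report.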

How the results depend on the processing

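Of 2794 recomputed values for 153 named results, 2692 stayed on the same side of the adjusted p limit of 0.05. Of the others 60 no longer passed it, 35 newly passed it and 7 reversed. A reversal was counted only where the new or the main value passed that limit, and the 2-fold limit was not used. Under library totals L1PA7 (-0.21, from 0.01) and L1PA8 (-0.16, from 0.05) changed sign and were not counted. The reversals were L2a under library totals (-0.0225, from 0.19), and with series b alone HERVK-int on chromosome 3 at 185565226 (2.19, from -0.01), on chromosome 5 at 156660384 (0.41, from -0.80) and on chromosome 8 at 7500001 (1.99, from -0.34), IGF2BP3 (-0.42, from 0.04), DPPA4 (-0.58, from 0.28) and JPX (0.41, from -0.05). Library totals gave 55 higher subfamilies in place of 98, and 33 higher in bl than b in place of 60. With a summed count of 500 or more, so with fewer loci tested, 15961 were higher and 26655 lower. With series b alone the share differences in percentage points were 9.50 for LINE (from -1.27), 0.941 for SINE (from 8.73), -11.6 for LTR (from -8.05) and -8.39 for HERVH-int with LTR7 (from -5.66). Leaving out each library gave 82 to 114 higher and 88 to 95 lower subfamilies, 70109 to 76634 and 100563 to 106160 loci, and 5835 to 6439 and 3458 to 3719 gene spans. The share differences then ran from 1.51 to 2.40 for L1HS, 3.73 to 6.74 for young L1, -3.64 to 0.131 for LINE, 7.79 to 10.5 for SINE, -8.52 to -7.17 for LTR, 0.356 to 0.971 for DNA and -6.09 to -4.93 for HERVH-int with LTR7.

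Replicate numbers are not stated to pair the libraries. Correlations of same-numbered libraries ran from -0.116 to 0.263 by title number and from -0.171 to 0.19 by description number, which cannot settle whether they were paired. With the title number as a block, 88 subfamilies were higher and 85 lower, 65835 and 100515 loci, and 5824 and 3679 gene spans. The description number as a block gave 98 and 95 subfamilies, 67069 and 99719 loci, and 5779 and 3345 gene spans. With the latter block 10 named values no longer passed the adjusted p limit. Among them were LTR7 (-0.81, edgeR adjusted p = 0.0722) and the HERVH-int locus within ESRG and CACNA2D3 (1.08, edgeR adjusted p = 0.071). Limits are the clone not stated for the ORF1p libraries, the third ORF1p library and the unknown number of single-locus differences missed.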
